A study of Mus musculus with 18 samples.

Results

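The regions described here are stretches of open chromatin whose peak calls differed between pressured and opposite eyes of old mice. Peaks of the 3 lists of 18mo IOP retina and the 3 lists of 18mo contralateral control retina were joined into 1 region whenever they shared 1 bp or more, which gave 77193 merged regions, against 99792 from all 18 lists of the series. Each region was scored by how many lists called it on each side. Regions called in 3 of 3 IOP lists and 0 of 3 contralateral lists are called gained, and there were 178 of them (0.231% of the merged regions). Regions called in 0 of 3 IOP lists and 3 of 3 contralateral lists are called lost, and there were 1672 (2.17%).

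Open chromatin was mapped by ATAC-seq, in which a transposase cuts and tags DNA that is not packed around nucleosomes, in whole retina of wild-type (WT) C57BL/6J mice. At 18 months of age, the intraocular pressure (IOP) of 1 eye was raised to 30 mmHg and held there for 1 hour, and the untouched eye served as the contralateral control. Per the labels the retinas were collected on day 2, with 3 libraries in each group, and the same groups exist at 3 months (3mo) beside untreated retinas of both ages. The study's own text gives a later day for the ATAC-seq retinas, and the day was not settled here. The extraction text of the labels also speaks of fixed chromatin and an antibody to acetylated histone H3, steps of another assay, while the titles and the study's text give ATAC-seq. The contralateral eyes came from animals that carried a pressured eye, so they are not eyes of untreated animals. The label text shared by all libraries also mentions the kinase inhibitor dasatinib, and which libraries, if any, came from injected animals is not labelled. No label states whether IOP and contralateral libraries of the same number came from 1 animal, or whether libraries of a group came from separate animals, so that the p-values measure the spread between these libraries.

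Acute pressure squeezes the retina and its blood supply, and the retina answers with a stress program in its neurons and in Müller glia, the support cells that span it. Part of that program runs through cytokines that activate STAT proteins, through AP-1, the Fos and Jun family of early response factors, and through NF-kB, the main switch of inflammatory genes. Such factors mostly bind enhancers, which lie in introns and between genes, while CRX and OTX2 keep the enhancers of photoreceptors and bipolar cells open.

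Of the highest-ranked gained regions, the following 4 hold a STAT motif (TTCNNNGAA) or an AP-1 motif (TGACTCA), and they are shown because these were the motifs that stood out among gained regions. Each line gives 201 bases centred on the summit, on GRCm38, with the STAT, AP-1 and CRX/OTX (TAATCC) matches of either strand in capitals.
Kremen1 intron (chr11:5219115-5219315, + strand): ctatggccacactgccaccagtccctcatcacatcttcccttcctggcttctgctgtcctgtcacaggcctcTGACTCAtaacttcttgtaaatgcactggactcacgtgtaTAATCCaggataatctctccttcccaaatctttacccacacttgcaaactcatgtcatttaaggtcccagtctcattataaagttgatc
Cdh20 intron (chr1:104920325-104920525, + strand): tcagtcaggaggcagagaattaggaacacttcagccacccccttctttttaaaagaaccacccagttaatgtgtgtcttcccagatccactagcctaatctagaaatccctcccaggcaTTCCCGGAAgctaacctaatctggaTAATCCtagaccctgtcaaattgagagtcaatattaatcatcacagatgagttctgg
Lmo1, intergenic (chr7:109192282-109192482, + strand): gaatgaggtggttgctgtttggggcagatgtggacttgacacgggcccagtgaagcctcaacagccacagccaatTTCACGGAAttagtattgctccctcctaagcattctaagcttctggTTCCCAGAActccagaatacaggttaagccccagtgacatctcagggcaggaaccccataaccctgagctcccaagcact
Lrrc2 promoter (chr9:110951481-110951681, + strand): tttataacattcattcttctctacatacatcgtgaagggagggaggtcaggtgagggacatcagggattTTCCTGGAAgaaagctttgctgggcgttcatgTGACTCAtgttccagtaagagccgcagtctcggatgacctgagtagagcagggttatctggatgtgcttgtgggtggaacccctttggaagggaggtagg

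A second set comes from regions that were open in all 6 libraries but taller after IOP. These regions, near Vegfa, Cebpd and Fgf2, were likewise picked for holding a STAT or AP-1 motif. The highest-ranked lost region is printed last, was taken by rank alone, and holds none of the 3 motifs. The highest-ranked gained region, near Lrrc66, also holds none. High-ranked lost regions near Pou4f3 and Keap1 hold STAT letters, so these printed sequences give no contrast between the sets.
Vegfa, intergenic (chr17:45966819-45967019, + strand): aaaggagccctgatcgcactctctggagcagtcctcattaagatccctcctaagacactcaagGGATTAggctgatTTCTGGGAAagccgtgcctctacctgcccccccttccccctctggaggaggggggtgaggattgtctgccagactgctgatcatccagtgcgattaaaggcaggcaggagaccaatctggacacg
Cebpd, in an intron of Spidr (chr16:15948305-15948505, + strand): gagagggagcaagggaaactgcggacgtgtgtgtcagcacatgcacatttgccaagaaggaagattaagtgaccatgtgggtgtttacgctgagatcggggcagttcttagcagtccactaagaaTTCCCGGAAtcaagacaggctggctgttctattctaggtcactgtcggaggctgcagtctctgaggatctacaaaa
Fgf2 intron (chr3:37354758-37354958, + strand): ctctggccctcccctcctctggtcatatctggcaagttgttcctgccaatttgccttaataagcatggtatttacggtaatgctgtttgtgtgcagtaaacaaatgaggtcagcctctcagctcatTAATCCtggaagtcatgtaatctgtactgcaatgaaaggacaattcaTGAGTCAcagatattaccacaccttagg
1700022I11Rik, intergenic, lost (chr4:42961725-42961925, + strand): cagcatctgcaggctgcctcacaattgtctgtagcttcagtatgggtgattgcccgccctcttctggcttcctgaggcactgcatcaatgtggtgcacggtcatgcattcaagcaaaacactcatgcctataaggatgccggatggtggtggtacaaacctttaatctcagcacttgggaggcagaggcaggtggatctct

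The lists themselves differed in length. The IOP lists held 48688, 48723 and 36011 peaks (mean 44474 ± 7329, SD, n = 3) and the contralateral lists 60755, 51166 and 57297 (56406 ± 4856, SD, n = 3). All 3 IOP lists were shorter than all 3 contralateral lists (difference −11932, p = 0.1, two-sided exact permutation test, the smallest p that 3 against 3 allows). The estimated depth ran from 20.2 to 23.5 M tags in these 6 libraries, and the pileup that a listed peak needed was at least 7 or 8 tags. A region not called may therefore have been open below that height, and in whole retina fewer cells with an open region and less opening per cell cannot be told apart.

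The tissue was checked by the promoters of cell type markers. All 10 rod promoters on the list and all 19 promoters of photoreceptor and retinal transcription factors were called in all 6 libraries. Of 12 microglial promoters 9 were called in none, and of 8 lens and cornea promoters 6 were called in none, with 2, 0 and 0 called in the IOP libraries and 2, 0 and 2 in the contralateral ones. The length of the shortest peak in a list, set by the fragment size in the peak calling, was 114 to 122 bp in IOP replicate 1 and contralateral replicates 1 and 3, and 148 to 149 bp in the other 3 libraries, so that both groups held both lengths.

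Most differences in calls were partial. Beside the 178 gained regions, 240 were called in 3 IOP and 1 contralateral list and 671 in 2 IOP and 0 contralateral lists. Beside the 1672 lost regions, 3441 were called in 1 IOP and 3 contralateral lists and 4184 in 0 IOP and 2 contralateral lists. Another 29808 regions (38.6%) were called in all 6. The counts moved with the length of the lists. With every list cut to its 36011 best peaks, 465 regions were gained and 397 were lost, and of the regions counted above 82 gained and 135 lost ones were met again. Leaving out IOP replicate 3, the shortest list, gave 589 gained regions, and leaving out contralateral replicate 2 gave 3944 lost ones. At 3 months the same rule gave 159 gained (0.211%) and 180 lost regions (0.238%) of 75496.

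Gained and lost regions lay mostly in introns and between genes, as did the other regions that only some lists called. A promoter, taken from 1 kb before to 100 bp after a transcription start, held 10 gained regions (5.62%, 95% Wilson interval 3.08 to 10.0) and 80 lost ones (4.78%, 3.86 to 5.92), against 36.7% of the regions called in all 6 and 6.07% of the 45535 regions called in 1 to 5 lists that were neither gained nor lost. Introns held 57.9% of gained and 49.9% of lost regions, and intergenic sequence 33.7% and 40.0%. Their median distance to the nearest start of a protein-coding gene was 26222 bp for gained and 26817 bp for lost regions, against 6467 bp for regions called in all 6 and 26902 bp for the other partly called regions. The distance from promoters was thus shared by partly called regions in general. Median widths were 362 bp for gained and 262 bp for lost regions, between the 220 bp of the other partly called regions and the 699 bp of those called in all 6. With a wider promoter of 2.5 kb to each side of a start, 12.4% of gained and 13.6% of lost regions were at a promoter, against 46.7% of the regions called in all 6 and 15.3% of the other partly called regions.

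**Figure D1:**
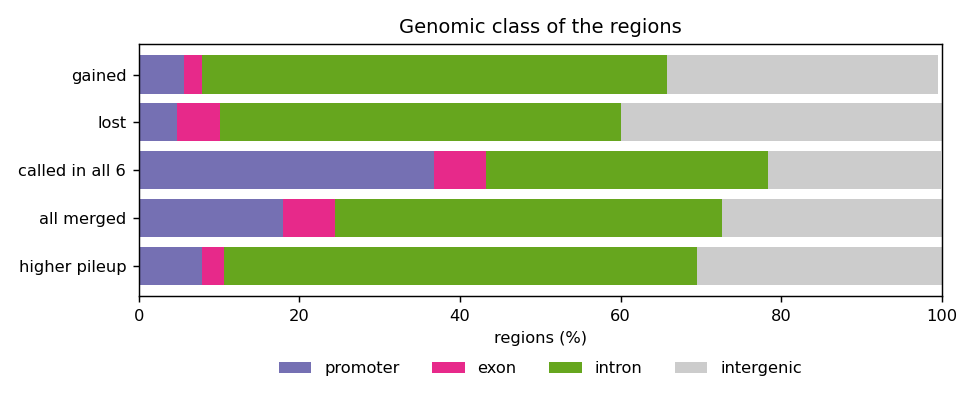
Share of regions (horizontal axis, percent) at promoters, exons, introns and between genes, for gained and lost regions, regions called in all 6 lists, all merged regions and the 141 regions with a higher summit pileup after IOP. Promoters held 5.62% of gained and 4.78% of lost regions against 36.7% of those called in all 6 and 6.07% of the other partly called regions, which are not drawn, and 1 gained region on an unplaced scaffold has no class.

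Gained peaks were of modest height. The summit pileup is the whole number of tags stacked at the top of a peak, recovered here from the fold and the −log10 p in the lists. Its median over gained regions was 15, 22 and 18 tags in IOP replicates 1, 2 and 3, with highest values of 62, 78 and 71. Over lost regions it was 15, 13 and 14 tags in the 3 contralateral libraries. Regions called in all 6 libraries had medians of 34 to 42 tags in IOP and 42 to 47 in contralateral libraries, so that both kinds of differing region sat toward the low end of the open chromatin of this tissue.

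The tallest gained region at a promoter belonged to Lrrc2, a leucine-rich repeat gene. It lies at chromosome 9, 110951390 to 110951782, its summit 36 bp from the start, and its pileup was 62, 76 and 63 in the 3 IOP libraries. All 3 IOP libraries stood above 60 tags where no contralateral library had a call. Outside that group the region was called in 3 of 3 3mo IOP libraries and in no other library of the series.

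Lmo1, a LIM-only transcriptional cofactor of developing neurons, had an equally tall gained region 17175 bp from its start, with 61, 77 and 66 tags. The gained region in an intron of Kremen1, a receptor that dampens Wnt signalling, reached 39, 70 and 50 tags, and that in an intron of Cdh20, a cadherin, 27, 53 and 37. All of these were called in 3 of 3 3mo IOP libraries and in 0 of 3 3mo contralateral libraries. An intronic region of Ice1, a subunit of the complex that elongates small nuclear RNA transcripts, had 37, 55 and 42 tags, but was also called in 3 of 3 18mo untreated libraries.

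The region with the highest rank lay 61962 bp from the start of Lrrc66 (chromosome 5, 73570236 to 73570863) and had 38, 75 and 71 tags. Another gained region 47000 bp from that start had 10, 35 and 17 tags, and one at the Lrrc66 promoter 13, 17 and 18. No other gene had 3 gained regions. Pdia4, a protein disulfide isomerase of the endoplasmic reticulum, had 2 intergenic regions, with 34, 51 and 52 tags and with 42, 71 and 69 tags. Cux1, a homeodomain repressor, Dlg2, a synaptic scaffold, and Pdk3, a kinase that restrains pyruvate dehydrogenase, had 2 each, at 10 to 33 tags.

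Further gained regions among the 12 with the highest rank lay at Afg3l2, a mitochondrial protease, with 38, 46 and 36 tags, and at Ebf1, a transcription factor also found in ganglion cells, with 31, 45 and 27. The region at Ebf1 lay 285065 bp from the nearest start and was also called in 2 of 3 3mo contralateral libraries. Ebf1 had a lost region as well, 404144 bp from the nearest start, with 11, 14 and 10 tags in the 18mo contralateral libraries. A region near Ptgdr, a prostaglandin D2 receptor, had 20, 39 and 26 tags. Regions near Tmem44 and Commd7 had 41, 53 and 42 and 39, 49 and 49 tags. Of the 12 gained regions of highest rank, 10 were called in 3 of 3 3mo IOP libraries and 9 in 0 of 3 3mo contralateral libraries. Over all 178 gained regions these counts were 43 and 134, so the 10 of 12 does not stand for the whole set.

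Gained regions at promoters were few. Beside Lrrc2 and Lrrc66 they were those of H2-T24, a class I histocompatibility gene, Aox1, an aldehyde oxidase, Smim24, Cd24a, a surface glycoprotein, and 4 genes known by clone names (Gm9747, Gm10165, 9130221F21Rik and Gm40117). None of these 10 promoters was called in an untreated library of 18 months.

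Among the gene lists read for stress and retinal function, a gene's regions are those for which it has the nearest protein-coding start. The reactive glia and injury list had 2 gained regions of 124, against 0.231% of all merged regions. They lay at Cebpd, a transcription factor induced by cytokines and injury, with 25, 24 and 25 tags, and near Edn2, an endothelin released by stressed photoreceptors, with 23, 23 and 29. The region at Cebpd was 11773 bp from its start and was called in 3 of 3 3mo IOP libraries and in none of the other 9 libraries outside the 18mo groups.

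The extracellular matrix list had 3 gained regions of 167 (1.80%, against 0.231% of all merged regions). They lay near Tgm2, a transglutaminase that crosslinks matrix proteins, with 33, 43 and 32 tags, Col4a2, a basement membrane collagen, with 8, 26 and 16, and Fn1, fibronectin, with 11, 10 and 10. The list of YAP, TEAD and Wnt genes had Kremen1 and the ligand Wnt2b (21, 14 and 13 tags), which made 2 of 226, and the list of apoptosis and axon injury had 1 of 176, at the survival gene Bcl2l1 (15, 18 and 14 tags). The channel gene Kcnd2 of A-type potassium currents (15, 12 and 18 tags) and the adhesion genes Cdh8 (11, 18 and 13 tags) and Ntm (11, 21 and 20 tags) had 1 each, and the 2 of the adhesion list were among 659 regions (0.303%, near the share of all merged regions). The regions of Kcnd2, Cdh8 and Ntm lay 924809, 263099 and 85252 bp from the nearest start. None of the regions on these lists exceeded 43 tags in any IOP library, apart from Kremen1.

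Other lists had none, and with 0.231% of all merged regions gained, less than 1 region was due in each, so that these zeros say nothing about the lists. There were 0 gained regions of 104 for STAT, JAK and SOCS genes, 0 of 162 for AP-1 and immediate early genes, 0 of 87 for NF-kB, 0 of 125 for senescence and cell cycle arrest, 0 of 96 for factors secreted by senescent cells, 0 of 29 for complement and microglial activation, and 0 of 332 for photoreceptor and retinal transcription factors. Of the genes that the study names for this comparison, Fgf2, Bcl3, Cdkn1a, Gdf15 and Mmp14, none had a gained or lost region among 29, and 14 of those 29 were called in all 6 libraries.

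Lost regions were more numerous and lower. The highest-ranked lay 8121 bp from 1700022I11Rik (chromosome 4, 42961710 to 42961906), with 29, 26 and 28 tags in contralateral replicates 1, 2 and 3. The next were 27464 bp from 4930444P10Rik, with 20, 23 and 25, and in an intron of Ppef1, a phosphatase of sensory neurons, with 21, 22 and 22. The 3 contralateral libraries lay close together at each, well above the 7 tags of the lowest calls.

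The tallest of the 12 lost regions with the highest rank lay 2194 bp from Keap1, the sensor that holds the antioxidant factor Nrf2 in check, with 50, 46 and 60 tags. It was called in all 12 libraries of the other 4 groups, 3mo IOP included. A region 51119 bp from Pou4f3, a transcription factor of ganglion cell subtypes, had 26, 19 and 19 tags, and a region in an intron of Reln had 21, 20 and 24. Of these 12 lost regions, 11 were called in 3 of 3 untreated libraries of 18 months, and the exception lay near Jrk. This was a trait of the highest ranks, since 528 of all 1672 lost regions were called in all 3 of those libraries and 532 in none.

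Some genes had several lost regions. Zfat, a zinc-finger gene, had 5, and Adgrv1, the adhesion receptor of Usher syndrome, Cdh4, a cadherin of the visual system, and Cited2, a coactivator-binding protein, had 4 each. Many lay far from the start, at 355979 to 1085972 bp for Cited2 and 106477 to 371914 bp for Cdh4. The distances were 9588 to 529158 bp for Zfat and 3174 to 183355 bp for Adgrv1. The list of photoreceptor and retinal transcription factors had 8 lost regions of 332 (2.41%, against 2.17% of all merged regions), at Mef2c, Meis1, Otx2, Prdm1, Rorb and Thrb. The region near Otx2, the factor that sets up photoreceptor and bipolar fates, lay 33279 bp from its start and had 16, 19 and 22 tags.

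Axon guidance genes had 10 lost regions of 309 (3.24%), at Efna5, Epha4, Ephb2, Nrp1, Nrp2, Plxna1, Robo3, Sema6a and Slit3, growth factors and neurotrophins 7 of 216 (3.24%), at Bdnf, Fgf12, Fgf9, Igf1, Ngfr and Ntrk3, and synaptic adhesion genes 15 of 659 (2.28%). Of the lost regions on these 3 lists, 5, 4 and 4 lay within 50 kb of the start. The shares of the retinal factors and of synaptic adhesion genes lay near the 2.17% of all merged regions. The region in an intron of Nrp1, a semaphorin and VEGF coreceptor, had 24, 19 and 21 tags. The glaucoma list had 0 lost regions of 121 and the Müller glia markers 0 of 101. Lost regions at promoters, 80 in all, were led by P2ry6, a receptor for the nucleotide UDP, at chromosome 7, 100965104 to 100965467, with 26, 26 and 27 tags. That promoter region was called in all 12 libraries of the other 4 groups.

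The motifs around the summits differed between gained and lost regions. Letters were searched on both strands within 100 bp of the summit for 15 motifs. They were STAT TTCNNNGAA, AP-1 TGACTCA, CRX/OTX TAATCC, homeodomain TAATTA, CRE TGACGTCA, TEAD GGAATG, SOX ACAATGG, the E-boxes CAGCTG and CAGATG, a partial NFI site TTGGCA, a nuclear receptor (ROR/NR) site AGGTCA, GC box GGGCGG, ETS ACCGGAAG, and by their names alone IRF and MEF2. The CRX/OTX and homeodomain letters share their TAAT, and STAT and ETS can share GAA letters, but no motif contains another. A match is a description of the letters only.

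The STAT letters stood in 42 of 178 gained regions (23.6%, 95% Wilson interval 18.0 to 30.3), in 4.90% of lost and in 4.54% of all merged regions. The AP-1 letters stood in 45 gained regions (25.3%), in 1.97% of lost and in 4.90% of all merged regions. The CRX/OTX letters stood in 49 (27.5%), in 15.8% of lost and in 13.7% of all. STAT or AP-1 was present in 80 gained regions (44.9%) against 9.21% of all merged regions, and both together in 7. In the printed sequences the region at Lrrc2 holds both, and the region near Lmo1 holds 2 STAT matches.

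In the other partly called regions the shares of STAT, AP-1 and CRX/OTX were 4.83%, 5.75% and 13.0%. The GC box, a mark of CpG-rich promoters, stood in 7.87% of gained and 7.72% of lost regions, close to the 8.82% of the other partly called regions, while regions called in all 6 had 33.2%. Outside promoters, 23.2% of gained regions and 4.75% of all merged regions held STAT letters. The shares also moved with the peak number: among the 465 regions gained with lists of equal length, STAT stood in 12.7%, AP-1 in 21.3% and CRX/OTX in 20.6%. Within 50 bp of the summit the gained shares were 16.3%, 19.1% and 20.8%, against 2.12% of all merged regions for STAT.

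**Figure D2:**
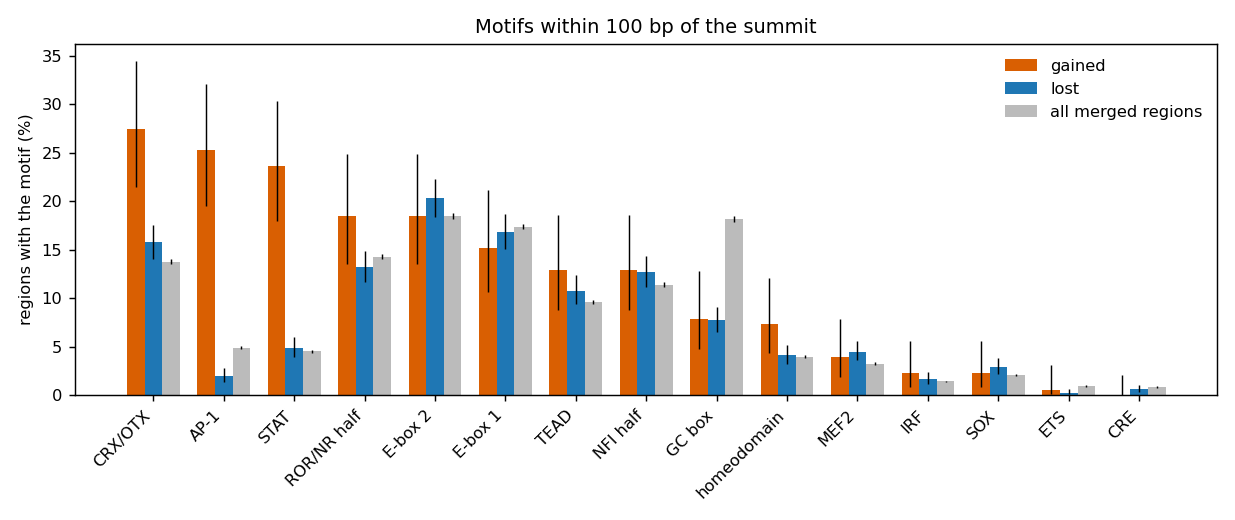
Share of regions (vertical axis, percent) with each motif within 100 bp of the summit, for 178 gained, 1672 lost and all 77193 merged regions. Bars start at 0 and lines are 95% Wilson intervals; gained regions stand apart at STAT (23.6%), AP-1 (25.3%) and CRX/OTX (27.5%).

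Motif shares can also be read over all peaks of each library, with no use of the gained set. With 36011 peaks in every list, AP-1 letters stood in 4.42%, 5.18% and 4.23% of peaks in IOP replicates 1, 2 and 3 and in 3.36%, 3.07% and 3.46% in the contralateral ones. STAT letters stood in 4.10%, 4.83% and 4.55% against 3.92%, 4.09% and 3.92%. In both cases every IOP library lay above every contralateral library, as did 1 other of the 21 measures of composition in the opposite direction, the share of intergenic peaks. Each had p = 0.1, the smallest that this exact permutation test allows, and an adjusted p of 0.7 over the 21, so that none passed.

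The gained regions were then read in libraries that had no part in choosing them. The 3mo IOP libraries called 37.6%, 50.6% and 65.2% of the 178 regions, and the 3mo contralateral libraries 3.93%, 23.0% and 1.69%. Every 3mo IOP library called more of them than every 3mo contralateral library, with a difference of 41.6 percentage points (51.1 ± 13.8 against 9.55 ± 11.7, SD, n = 3 each, p = 0.1, two-sided exact permutation test, the smallest possible). The untreated libraries called 14.6% to 27.5% at 18 months and 7.87% to 18.5% at 3 months.

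The short and long lists of 3 months gave the same direction. Among libraries with a short minimal peak, IOP replicate 1 called 37.6% and contralateral replicate 2 called 23.0%, and among those with a long one the IOP libraries called 50.6% and 65.2% and the contralateral ones 3.93% and 1.69%. Regions called in all 6 libraries of 18 months were called alike, at 97.2 ± 1.02% in 3mo IOP and 96.2 ± 2.81% in 3mo contralateral libraries. Of the 178 regions, 33 were themselves gained at 3 months and 0 were lost there, where 0.211% and 0.238% of all merged regions were. The regions with STAT or AP-1 letters (52.9% against 9.58%) and those without (49.7% against 9.52%) gave close values.

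In the share called per library, lost regions did not follow this pattern. The 3mo IOP libraries called 44.7%, 33.9% and 33.7% of the 1672 regions and the 3mo contralateral libraries 25.4%, 78.0% and 31.8%. The groups overlapped, with a difference of −7.62 percentage points (p = 1.00, exact permutation test, n = 3 each). Contralateral replicate 2 of 3 months, with the longest list of its group, set that direction, and without it the difference was 8.85 (p = 0.2, exact permutation test). The untreated libraries of 18 months called 49.9%, 46.8% and 51.6%. Of the lost regions 528 were called in all 3 of those untreated libraries and 532 in none. At 3 months 19 of the 1672 were lost and 4 gained, where 0.238% and 0.211% of all merged regions were.

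**Figure D3:**
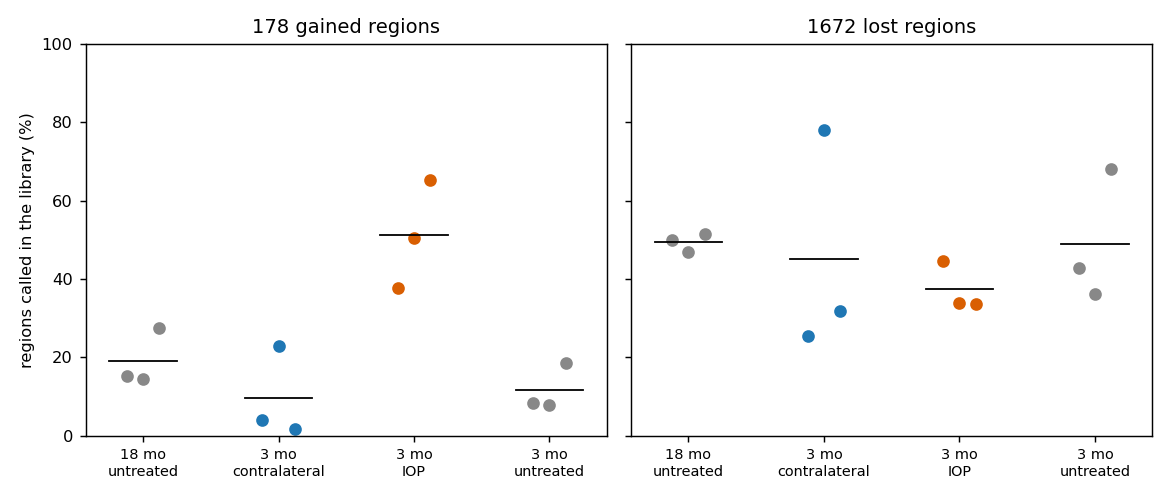
Share of the 178 gained (left) and 1672 lost regions (right) called in each library outside the 18mo IOP and contralateral groups (vertical axis, percent); points are libraries and lines are group means, n = 3. For gained regions the 3mo IOP libraries lie at 37.6% to 65.2%, above the 3mo contralateral libraries at 1.69% to 23.0%, while for lost regions the groups overlap.

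Regions called in all 6 libraries allow a graded comparison, because every library gives a value there. On the fold enrichment of the lists, limma called 10 of 29808 regions higher (0.0335%) and 1 lower (0.00335%) after IOP at an adjusted p under 0.05. The regions higher after IOP included an intronic one of Eif2ak3, the kinase PERK that senses endoplasmic reticulum stress, with folds of 14.0, 13.1 and 10.1 against 7.42, 5.84 and 7.02 (log2 difference 1.08 ± 0.10, SE, adjusted p = 0.0290). The others lay at or near Baalc, Dcps, Ncam1, Prpf18, Cog7, Agrn, Vegfa, Galnt7 and Tfap2a. The region lower after IOP was the promoter of Pkib, an inhibitor of protein kinase A, with folds of 6.70, 5.38 and 4.58 against 12.4, 10.7 and 12.2 (−0.88 ± 0.11, SE, adjusted p = 0.0462).

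These fold calls were fragile. None of the 10 passed without IOP replicate 2 or 3 or without contralateral replicate 1, 2 or 3, and 3 passed without IOP replicate 1. With the shortest-peak class in the fit 0 passed. The fold divides by a local background, so the summit pileup was tested as well, a measure chosen after seeing the data. On the log2 scale of pileup plus 1, made equal in distribution between libraries, 141 of 29805 regions were higher after IOP (0.473%) and 13 lower (0.0436%), and they included all 11 regions called by fold. On the fold, 132 of the 141 had a log2 difference above 0 and 9 below 0, with a median of 0.496. Every listed IOP fold lay above every contralateral one in 46, and below every contralateral one in 2. All 13 lower regions were also below 0 by fold. The pileup was recovered from this fold in the same libraries, so these counts are no separate evidence. Their shares over all regions are not given here.

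The number of pileup calls also moved with single libraries. It was 114 higher and 7 lower without IOP replicate 1, 9 and 0 without IOP replicate 2 and 2 and 0 without IOP replicate 3. Without contralateral replicate 1, 2 or 3 it was 24 and 0, 48 and 2, and 18 and 0. All 154 regions kept their direction under each of these, but they were chosen on the same libraries, so this is no separate evidence. With the shortest-peak class in the fit 111 were higher and 10 lower. The log2 differences of the 141 regions ran from 0.54 to 2.70 with a median of 1.07, and 80 were at least 2-fold higher. Since the regions were chosen on these same pileups, groups that do not overlap at single regions below are a description and no added evidence.

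The regions of smallest adjusted p by pileup lay near Vegfa and Dcps, and the counts on the gene lists were small. The reactive glia and injury list had 9 of its 42 regions higher (21.4%, against 0.473% of all), at Bcl3, Cebpd, Edn2 and Fgf2, and the median log2 difference of the 42 was 0.244 against −0.00933 over all regions. Of the 9 regions 6 lay at Bcl3 and Fgf2, which the study took from its samples of this comparison, so that this count is no independent evidence. Factors secreted by senescent cells had 4 of 30 higher, at Fgf2 and Vegfa, and growth factors 4 of 52, at Fgf2 and Ret. NF-kB genes had 3 of 38, which all lay at Bcl3. Lists share genes, so these counts overlap.

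The region near Vegfa, the main growth factor of blood vessels, lies at chromosome 17, 45966510 to 45967192, and 64437 bp from its start. Its pileup was 79, 85 and 60 in the IOP libraries and 14, 14 and 16 in the contralateral ones. The groups were far apart (2.44 ± 0.10, SE, adjusted p = 0.00104), and this was the smallest adjusted p of the comparison. At 3 months the region had 50, 53 and 55 tags in IOP libraries and a call in 1 contralateral library, at 18.

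Bcl3, an atypical IkB protein that binds NF-kB on DNA, had 3 regions that passed. They lie on chromosome 7, from 19817243 to 19817876, from 19815940 to 19816785 at the promoter of Gm16174, an antisense transcript inside Bcl3, and from 19811141 to 19811686. The first had 53, 86 and 67 tags after IOP against 15, 9 and 9 (2.70 ± 0.21, SE, adjusted p = 0.00703), the largest difference of all. The next had 61, 96 and 63 against 19, 14 and 21 (2.16), and the last 28, 43 and 35 against 16, 9 and 16 (1.55). In each of the 3 every IOP library stood above every contralateral library. A further region 8159 bp from its start had 17, 33 and 25 against 13, 9 and 13 and did not pass (1.21 ± 0.23, SE, adjusted p = 0.0954).

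Fgf2, basic fibroblast growth factor, which protects photoreceptors, also had 3 regions that passed. The intronic one printed above (chromosome 3, 37354609 to 37355094) had 56, 81 and 60 tags against 23, 18 and 21 (1.83 ± 0.13, SE, adjusted p = 0.00703). A second intronic region had 84, 93 and 77 against 36, 39 and 42 (1.29), and the region at the gene start 46, 60 and 46 against 25, 31 and 23 (1.16, adjusted p = 0.0494). In each the lowest IOP pileup lay above the highest contralateral one. By fold, however, the second intronic region had a log2 difference of −0.00 ± 0.12 (SE), and the gene start had 4.20, 4.14 and 3.57 against 4.55, 4.98 and 4.58 (−0.07 ± 0.12, SE, adjusted p = 0.840, limma). A further 2 regions of Fgf2 did not pass (0.49 and 0.45, adjusted p = 0.170 and 0.241).

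Cebpd had a tall region inside Spidr, 61119 bp from its start (chromosome 16, 15948194 to 15948819), with 71, 87 and 65 tags against 23, 18 and 25 (1.93 ± 0.11, SE, adjusted p = 0.00423). Its promoter had 69, 74 and 63 against 37, 26 and 38 (1.23, adjusted p = 0.0160). Together with the gained region between them, 3 regions at Cebpd were higher or called only in the IOP group. The 3mo libraries gave 66, 54 and 73 tags after IOP and 10, 26 and 11 in contralateral eyes at the region inside Spidr.

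Edn2 had a region 2424 bp from its start with 93, 114 and 100 tags against 37, 47 and 39 (1.46 ± 0.16, SE, adjusted p = 0.0209), beside its gained region. Atf3, a stress factor induced in injured ganglion cells, had an intergenic region 24255 bp away with 66, 83 and 70 against 26, 16 and 22 (1.96). Nr4a1, an early response nuclear receptor, had an intronic region with 80, 96 and 73 against 45, 38 and 47 (1.10). The groups did not overlap at any of these regions, which were chosen on these same values.

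On the list of STAT, JAK and SOCS genes, 1 of 51 regions passed (1.96%, against 0.473% of all). It was the promoter of Socs3, which STAT3 induces and which blocks JAK signalling, with 85, 114 and 95 tags after IOP and 51, 47 and 52 in contralateral eyes (1.09 ± 0.12, SE, adjusted p = 0.0211). The groups did not overlap. The promoter of Irf9, a DNA-binding factor of the interferon response, had 87, 94 and 84 against 62, 55 and 61 (0.72, adjusted p = 0.0301), 1 of 32 regions on the interferon list. Its fold pointed the other way, with 15.2, 10.9 and 11.4 against 15.5, 13.0 and 14.8 (−0.07 ± 0.11, SE, adjusted p = 0.812, limma). The interleukin-6 family had 0 of 24, where less than 1 was due at the share of all regions.

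The extracellular matrix list had 1 of 52 regions higher (1.92%, against 0.473% of all). This region, 25833 bp from Mmp2, a gelatinase that cuts basement membrane collagen, had 43, 70 and 49 tags against 14, 17 and 15 (1.92 ± 0.18, SE, adjusted p = 0.0133). Off that list, and chosen after their values were seen, Sulf2, which trims heparan sulfate, had 87, 114 and 97 against 31, 37 and 26 (1.82). The groups did not overlap at either. Agrn, a heparan sulfate proteoglycan, had 38, 83 and 51 against 13, 14 and 13 (2.14), with IOP replicate 2 well above the other IOP libraries. Loxl4, a lysyl oxidase, had 2 regions that passed.

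Other genes had several regions. Zbtb7c, a zinc-finger repressor, had 5 along chromosome 18 (0.72 to 1.59) beside a gained region with 39, 45 and 51 tags. Fmo9, Prag1 and Slc25a37, a mitochondrial iron carrier, had 3, 3 and 2. The intronic region of Dcps, a scavenger of mRNA caps, separated the groups with little spread, at 49, 54 and 50 tags against 13, 13 and 13 (2.08 ± 0.10, SE, adjusted p = 0.00264). The fold of the 5 regions at Zbtb7c differed by −0.03 to 0.17 on the log2 scale. The genes with both a gained and a higher region numbered 9, namely Acoxl, Cebpd, Edn2, Lrrc2, Nsun7, Prkag2, Scube1, Tmem161b and Zbtb7c. In all, 171 genes were nearest to a gained region and 126 to a higher one, among 16694 nearest to any merged region. The size of this overlap was not tested.

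The promoter of Crybb3, a lens crystallin, was also higher, with 33, 23 and 20 tags against 13, 12 and 15 (1.08 ± 0.15, SE, adjusted p = 0.0460). On the lens and cornea list, which did not include it, 0 of 9 regions were higher or lower, their median log2 difference was −0.0505, and the promoters called per library were those given above. The part of lens tissue in this value was not tested.

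The 13 regions that were lower had smaller differences, from −1.27 to −0.53 on the log2 scale. The lowest lay in an intron of Fam172a, 20399 bp from Pou5f2, with 20, 20 and 12 tags after IOP and 47, 49 and 53 in contralateral eyes (−1.27 ± 0.17, SE, adjusted p = 0.0343). Slc36a1, an amino acid carrier, had 12, 12 and 11 against 24, 22 and 24 (−0.68), and the Pkib promoter 15, 13 and 12 against 29, 27 and 28 (−0.74). The rest lay at Map3k19, Usp29, Pdcd4, Inpp4b, Tbca, Arfgef3, Zfp706, Mreg, Ahdc1 and Sec22a.

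Regions of senescence genes gave no call in either direction among 55, where less than 1 was due at the share of all regions. The promoter of Cdkn1a, which encodes the cell cycle inhibitor p21, had 56, 45 and 41 tags after IOP and 58, 50 and 57 in contralateral eyes (−0.02 ± 0.11, SE, adjusted p = 0.973). The 3 regions of the stress cytokine Gdf15 had adjusted p-values of 0.530 to 0.926, and the region nearest to Mmp14 was not called in all 6 libraries and could not be tested. Over the genes the study names, 6 of 14 regions were higher, all at Bcl3 and Fgf2, and since the study took these names from its own samples of this comparison this is no independent evidence. None of the 133 regions of photoreceptor and retinal transcription factors, 152 of synaptic adhesion genes and 60 of voltage-gated channels was higher or lower, and at the 0.473% and 0.0436% of all regions less than 1 call was due in each list.

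**Figure D4:**
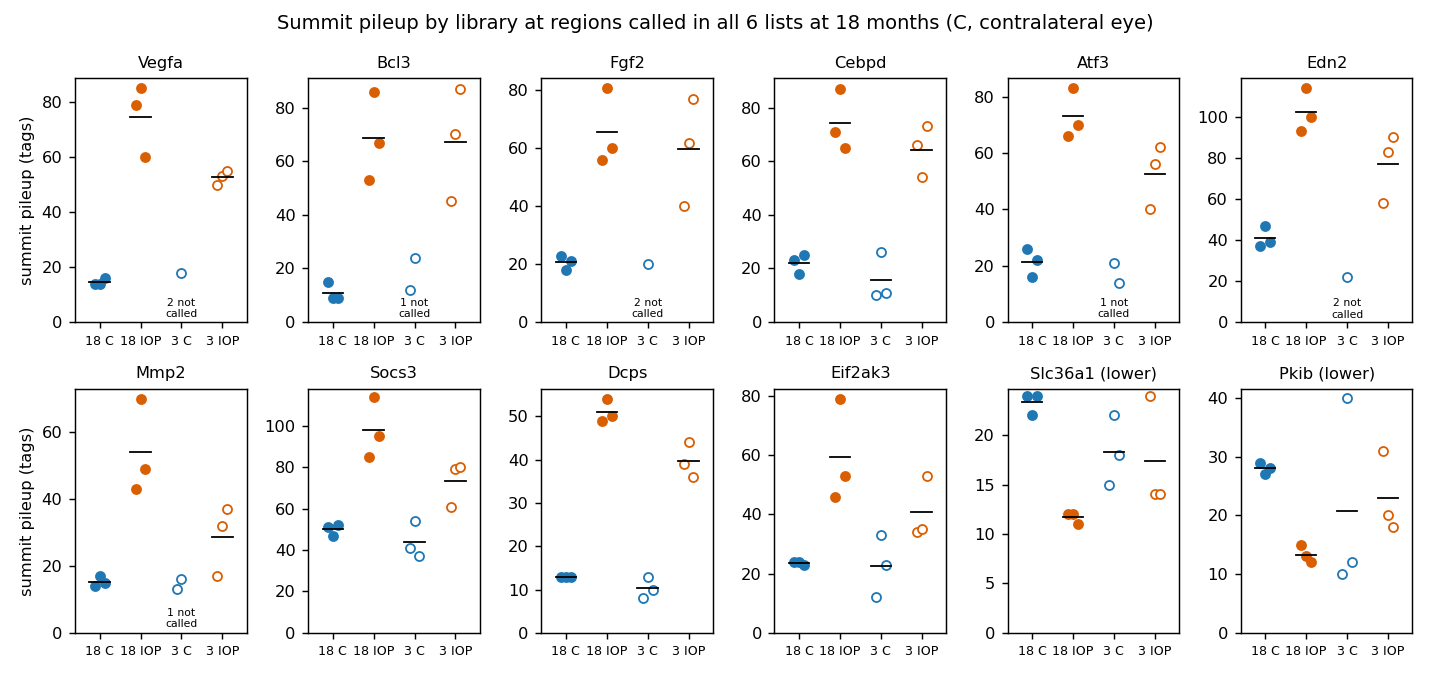
Summit pileup (vertical axis, tags, from 0) in each library at 12 regions called in all 6 libraries of 18 months, 10 higher and 2 lower after IOP; points are libraries, lines are means where all 3 libraries gave a value, filled points are 18 months and open points 3 months. At Vegfa the 18mo IOP libraries lie at 60 to 85 tags and the contralateral ones at 14 to 16.

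Most of the 141 regions lay in introns and between genes. Promoters held 11 of them (7.80%), introns 83 and intergenic sequence 43, and STAT letters stood in 27 (19.1%, against 3.97% of all regions called in all 6), AP-1 letters in 17 (12.1% against 3.64%, and against 25.3% of gained regions) and CRX/OTX letters in 38 (27.0% against 14.6%). GC boxes stood in 12.1% against 33.2%. Promoters held 36.7% of the regions called in all 6, so these shares also reflect the mix of classes. Outside promoters, the regions called in all 6 had GC boxes in 15% and CRX/OTX letters in 20.6%, which narrows both gaps. Their STAT and AP-1 letters outside promoters stood in 4.27% and 4.68%. The shares of the 141 regions outside promoters are not given here. Over all 1086 tested regions with AP-1 letters, called or not, the median log2 difference was 0.102 and 66.8% were above 0, against 47.4% of all regions. The median pileup of these regions relative to all regions was higher in all 3 IOP libraries than in all 3 contralateral ones (difference 0.179 on the log2 scale, p = 0.1, two-sided exact permutation test, adjusted p = 0.375 over 15 motifs), which did not pass.

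The young retinas gave the regions with a higher pileup a reading outside the libraries that chose them. Of the 141 regions, 88 were called in all 6 3mo lists, and 87 of these (98.9%) had a higher mean in 3mo IOP libraries, against 49.5% of 26672 regions. In 68 (77.3%) every IOP library of 3 months lay above every contralateral one, against 4.36% of the 26672. The exception in direction was a region in an intron of Bach2 (0.81 at 18 months and −0.17 at 3 months on the log2 scale). The median log2 pileup of the 88 regions relative to all regions was −0.29, −0.00035 and 0.10 in 3mo IOP libraries and −0.89, −0.95 and −0.84 in 3mo contralateral ones, a difference of 0.829 (p = 0.1, two-sided exact permutation test, the smallest possible).

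Regions lower at 18 months did not behave in that way. Of 10 measured in all 6 3mo lists, 3 had a higher and 7 a lower mean after IOP at 3 months, and the difference of medians was −0.0832 (p = 0.5, exact permutation test, n = 3 each). A test of whether the IOP effect differed between ages, on the fold of 26569 regions called in all 12 libraries, gave 0 regions at an adjusted p under 0.05 (limma interaction term, 387 higher and 727 lower at 18 months at an unadjusted p under 0.05). Without 3mo contralateral replicate 2, 1 region passed (adjusted p = 0.0279, limma). Among so many regions the unadjusted counts show no difference by themselves. In the same fit the IOP effect itself passed in 5 regions higher and 6 lower at 18 months, and in 0 at 3 months. The test was not run on the summit pileup, and regions not called in all 12 libraries did not enter it. It therefore cannot show that the effect was the same at both ages.

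**Figure D5:**
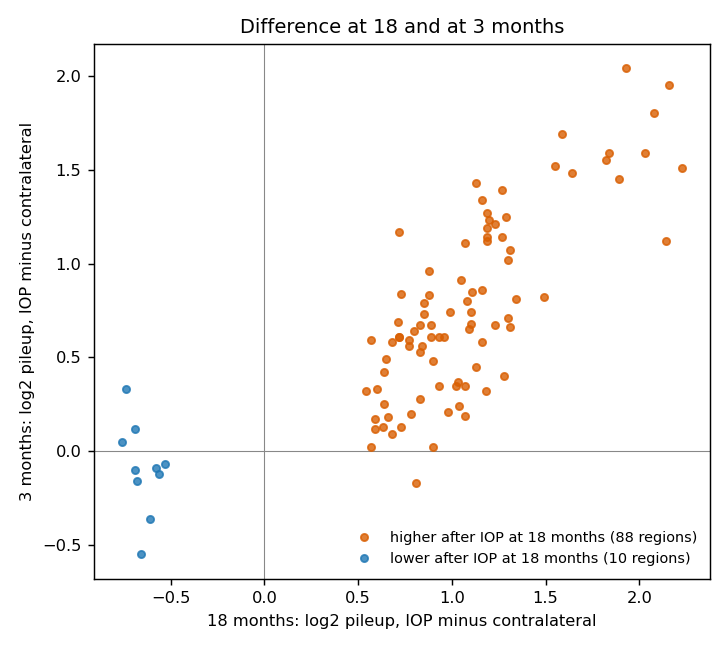
Difference in log2 summit pileup between IOP and contralateral libraries at 18 months (horizontal axis) and 3 months (vertical axis) for the regions called at 18 months and present in all 6 lists of 3 months. Of the 88 regions higher at 18 months 87 lie above 0 at 3 months, while the 10 lower regions lie on both sides of 0.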

How the data were processed

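Chromatin accessibility was measured by ATAC-seq in 18 libraries of mouse retina, in 6 groups of 3, and the groups were taken from the labels. The authors called peaks with MACS2 in each library, without pooling, at a q-value threshold of 0.05 on mm10 (GRCm38); STAR 2.7.8a, HOMER, edgeR and bedtools 2.29.2 are also named in the submitters' processing notes. The deposited lists hold a score, the fold at the summit (a ratio of pileup to local background), and −log10 values of p and q at the summit. Duplicate filters and read shifting for the transposase are not given in the sources used here. The study modelled read counts, which the lists do not hold.

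Peaks were merged and scored as described, ranked by the percentile of −log10 q within a list, and annotated at the median summit with GENCODE M21 basic. Whole summit pileups were recovered from the deposited fold and −log10 p (within 0.01 of the listed −log10 p), and depth was estimated from the background pileup and the shortest peak. Differences between libraries used two-sided exact permutation tests. Regions called in all 6 lists were tested with limma 3.58.1 (R 4.3.3) on quantile-normalized log2 fold, with Benjamini-Hochberg adjustment over all regions; the test on log2(pileup + 1) was added after seeing the data, and its differences understate those of low regions. Depth limits the lists to peaks of 7 tags or more, and intervals cover counting error only. The limma fit on fold was tested on simulated data, with known changes placed in regions below the median. Sequences came from the RefSeq GRCm38 genome.

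The members, gene lists and motifs were chosen with earlier results of these data known. Genes are named when their region is among the 12 gained or lost ones of highest rank, a gained promoter or 1 of the 10 leading lost promoters, when a gene has 2 or more gained or 4 or more lost regions, when a listed gene has such a region, and for the 10 graded regions of smallest p in each direction. Genes the study names are always given. Some regions that meet this rule are not reported here. Pileup-called genes outside this rule were chosen after their values were seen. Alternatives were equal peak number, a stricter threshold, other overlaps and windows, other scalings and measures, a class covariate, a replicate block and leaving out each library.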

Additional observations from a re-analysis of the deposited data

How the results depend on the processing

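With equal peak numbers 465 regions were gained and 397 lost. Leaving out 1 library gave 241 to 589 gained and 1883 to 3944 lost regions. The counts stayed within 1.5 times at a stricter threshold, with 50% overlap, with summit windows and with regions of all 18 lists, but with 50% overlap 99 of the 178 gained and 1035 of the 1672 lost regions were met again. Regions higher by fold numbered 0 with the shortest-peak class in the fit, 0 with a replicate block, 46 on −log10 p, 141 on summit pileup and 0 to 3 without 1 library. Regions lower by fold numbered 2 with median centring, 0 with the class, 0 with the block, 13 on pileup and 0 (0 to 0) without 1 library. By pileup, higher regions numbered 7 with the replicate block and 2 to 114 without 1 library, and lower ones 32 with median centring, 0 with the block and 0 to 7 without 1 library. Leaving out 1 library gave 0 to 1 regions whose IOP effect differed between 18 and 3 months. The share of lost regions called at 3 months differed by −17.5 to 8.85 percentage points without 1 library, and its direction reversed (8.85) without 3mo contralateral replicate 2. The share of gained regions differed by 34.6 to 48.3 points, and by 29.0 with equal peak numbers. Apart from fewer libraries or peaks, the cause of these changes was not tested.

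Deviations of same-numbered IOP and contralateral libraries from their group means correlated at 0.321, 0.202 and −0.134, so the numbers were not taken as pairs. With the replicate block the exact test of peak number had p = 0.25, the smallest that 8 arrangements allow, and so had the share of gained regions. For the share of lost regions it was 1.00. The 20 regions named from the fold test kept their direction under all 220 alternatives, 87 of which no longer passed and 5 of which now passed. These regions were chosen on the same libraries, so a kept direction is no separate evidence. Shares at promoters and of motifs moved beyond their intervals in 4 of 8 values with wider promoters, 7 of 38 with equal peak numbers and 25 of 30 within 50 bp of the summit.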

Other observations

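Beyond the gene lists, 3 regions with a higher pileup that were picked after their values were seen are given by value. An intergenic region 22041 bp from Pcare, which encodes an actin-associated protein of the photoreceptor cilium, had 63, 82 and 59 tags after IOP and 24, 11 and 23 in contralateral eyes (2.03 ± 0.23, SE, adjusted p = 0.0227, limma). An exonic region of Senp7, 15885 bp from Impg2, a proteoglycan of the matrix around photoreceptors, had 56, 54 and 42 against 35, 29 and 35 (0.83, adjusted p = 0.0168). The promoter of Kcng4, a modifying potassium channel subunit, had 66, 66 and 50 against 31, 23 and 33 (1.27, adjusted p = 0.00969). By fold the log2 differences at these 3 were 0.86, 0.15 and 0.62. On the rod and cone marker lists 0 of 39 and 0 of 32 regions had a higher pileup, where less than 1 was due at the 0.473% of all regions.

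The gained region in an intron of Ntm was 1 of 11 that were called in all 3 untreated libraries of 18 months, and 2 of 3 untreated libraries of 3 months called it as well. Lost and gained regions were spread over the genome, with 0.125% to 0.324% of the merged regions of each autosome or chromosome X gained and 1.63% to 2.96% lost.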
